A study of Mus musculus with 6 samples.

Results

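The genes described here are 43 core interferon-stimulated genes of the mouse, chosen by name as widely used members of the type I interferon response. The IRF, OAS, Schlafen, GBP/IRG and Ifi200 families were left out, and the choice was made with earlier results of these data known. Of the 43, 41 had a row among the 40202 genes of the table, and 2 were not analysed here. A mean of at least 10 normalised reads was reached by 37, which were tested among 14079 genes. Zbp1 reached that mean through the treated libraries, and its control mean lay below it. RNA was sequenced from BV2 cells, an immortalised line of mouse microglia with a C57BL/6 background. The control group held 3 samples left untreated, and the treated group held 3 samples incubated with the human full-length apolipoprotein E4 protein (FL-ApoE4) for 5 h at 25 µg/ml. Whether controls received the solution in which the protein was supplied is not stated. Nor is it stated that replicates were separate cultures, and p-values therefore reflect the spread among these 6 samples alone, part of which may be technical.

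Type I interferons bind the receptor pair IFNAR1 and IFNAR2 on the cell surface and activate the kinases JAK1 and TYK2. These phosphorylate transcription factors such as STAT2, which join IRF9 in a complex that enters the nucleus and binds a short element in the promoters of interferon-stimulated genes. The proteins encoded by these genes sense viral nucleic acid, block steps of viral replication, modify other proteins with ISG15 or ADP-ribose, and both amplify and restrain the signal. Microglia, the resident macrophages of the brain, are known to enter an interferon-responsive state in ageing, infection and neurodegeneration.

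The promoters of the genes are shown first because the complex binds a known pattern of letters in such windows. The core letters, GAAA followed by any 2 bases and GAAA again, were searched on both strands with overlapping matches allowed, in windows from 250 bases before to 50 bases after the start (RefSeq, GRCm38.p6). A match was found in 12 of the 33 genes with a window (36.4%), against 3.99% of all 27025 genes with windows of that length. The longer form, which ends in GAAACT, was found in 6 of the 33 (18.2%), against 0.303% of all genes. A match describes letters only, and a window without one says nothing about binding of the complex.

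Stretches of 170 bases are printed for 6 genes whose matches lie before the start, with matches in capitals and the rest in lower case, each read 5′ to 3′ on the strand of the gene. Those of Isg15, Rsad2, Ddx60, Bst2 and Ifit3 end at the base before the start. That of Ifit3b runs from 202 to 33 bases before its start, so that it lines up with Ifit3.
Isg15 (chr4:156200819-156200988, minus strand): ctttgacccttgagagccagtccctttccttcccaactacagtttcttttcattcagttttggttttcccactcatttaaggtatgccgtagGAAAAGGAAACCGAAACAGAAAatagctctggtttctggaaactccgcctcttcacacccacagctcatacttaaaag
Rsad2 (chr12:26456453-26456622, minus strand): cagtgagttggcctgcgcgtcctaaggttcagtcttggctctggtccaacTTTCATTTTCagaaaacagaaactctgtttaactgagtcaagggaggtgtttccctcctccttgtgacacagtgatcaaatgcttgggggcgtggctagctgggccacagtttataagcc
Ddx60 (chr8:61927917-61928086, plus strand): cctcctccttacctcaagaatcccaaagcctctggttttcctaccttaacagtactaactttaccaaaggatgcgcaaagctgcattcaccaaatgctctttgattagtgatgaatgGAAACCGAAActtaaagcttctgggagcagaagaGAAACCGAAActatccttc
Bst2 (chr8:71537473-71537642, minus strand): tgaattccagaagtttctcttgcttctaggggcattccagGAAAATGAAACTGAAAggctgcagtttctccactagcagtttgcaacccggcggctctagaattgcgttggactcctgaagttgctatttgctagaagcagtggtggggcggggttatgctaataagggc
Ifit3 (chr19:34583359-34583528, plus strand): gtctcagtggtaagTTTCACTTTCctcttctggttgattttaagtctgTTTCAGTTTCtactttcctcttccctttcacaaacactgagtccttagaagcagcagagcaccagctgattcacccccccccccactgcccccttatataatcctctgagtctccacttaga
Ifit3b (chr19:34607755-34607924, plus strand): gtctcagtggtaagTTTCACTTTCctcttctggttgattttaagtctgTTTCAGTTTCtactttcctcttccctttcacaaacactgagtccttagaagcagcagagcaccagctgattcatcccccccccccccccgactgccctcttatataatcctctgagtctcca

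Isg15 carried 3 overlapping matches that begin 78, 72 and 66 bases before the start. Ddx60 and Bst2 carried 2 each, and Rsad2 carried 1 on the opposite strand. Ifit3 and its neighbour copy Ifit3b carried 2 each, and their stretches were identical over the first 121 bases.

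The libraries held 45700128 to 54965393 reads assigned to genes. Of 15 markers of microglia and macrophages, 13 had a mean of at least 10 normalised reads, while P2ry12 and Sall1, which mark microglia of the brain, were listed at 0. The markers summed to 217041 to 219237 normalised reads in controls and to 238112 to 245829 with FL-ApoE4, so this sum moved with the group. Markers of B cells, 2 of 4 with such a mean and with the defining gene Ms4a1 at 0, summed to 16.96 to 22.8 and 23.4 to 35.2. Markers of plasmacytoid dendritic cells, 2 of 5 with such a mean, summed to 2198 to 2394 and 2044 to 2124, and markers of neurons, 1 of 6, to 24.5 to 28.2 and 19.6 to 22.3. Most of the dendritic sum was Tcf4, at 2109 to 2323 in controls and at 1989 to 2055 with FL-ApoE4. Siglech of the same list ranged from 0 to 7.81 over all libraries. The parts of these sums in the results below were not tested. For astrocyte, oligodendrocyte, endothelial, fibroblast, and T and NK cell markers the sums overlapped between groups. In these bulk libraries of a cell line, fewer cells that express a marker and less of its RNA per cell cannot be told apart.

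With all 6 libraries the interferon-stimulated genes were mostly higher with FL-ApoE4, and none passed the threshold. The log2 fold change, treated minus control, was positive in 31 of the 37 tested, against 50.3% of all genes tested. The exceptions were Trim21, Parp14, Dtx3l, Helz2, Isg20 and Daxx, with Isg20 positive when libraries were scaled to equal totals and with Isg15 and Znfx1 also negative by edgeR and DESeq2. The median of the 37 was 0.24, and that of all genes tested was 0.00. By limma, 0 of the 37 reached an adjusted p under 0.05, against 0.0% of all genes, and 17 were higher at an unadjusted p under 0.05, against 6.81%. The edgeR quasi-likelihood test called 0, against 0.0%, and gave 16 at an unadjusted p under 0.05, against 6.8%. DESeq2 called 6 higher, against 1.62% of the 12166 genes with an adjusted p by it. It gave no adjusted p for Zbp1 and Isg20. With array quality weights limma called 22 higher, against 6.29%. In 15 of the 37, every treated library was above every control, against 11.1% of all genes, and the reverse held for 0, against 10.9%. Zbp1, which passed the filter only through the treated group, is among the 31, the 17, the 16, the 22 and the 15. Without it, 16 of the other 36 were higher by limma at an unadjusted p under 0.05.

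**Figure D1:**
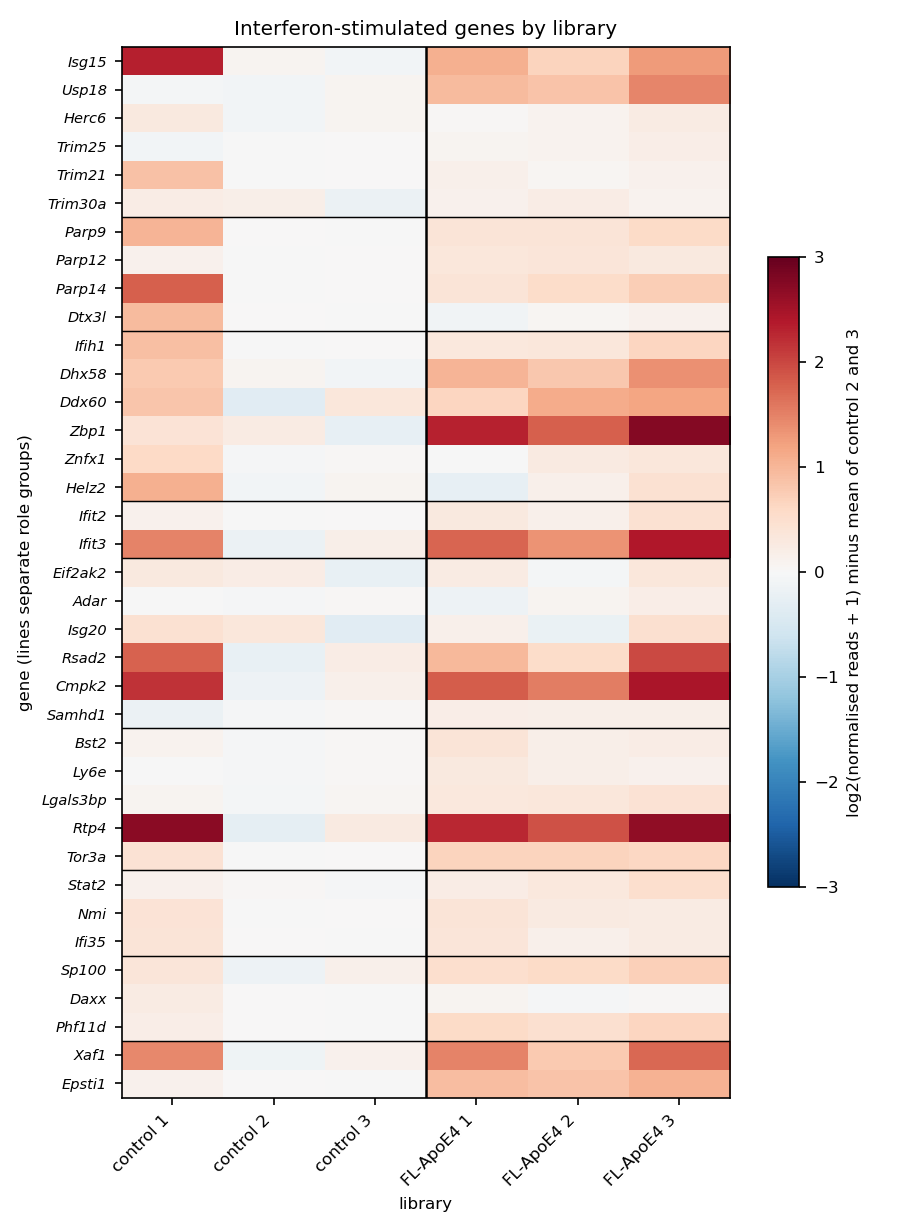
Heat map of the 37 tested genes (rows, grouped by role) in the 6 libraries (columns); colour gives log2(normalised reads + 1) minus the mean of control replicates 2 and 3, in log2 units. Control replicate 1 lies within the range of the FL-ApoE4 libraries for Cmpk2 and Rsad2. It lies above that range for Rtp4 and for Isg15 (2.33, against 0.67 to 1.28), and close to the other controls for Usp18, Epsti1 and Parp12.

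Control replicate 1 stood apart from the other controls in many of these genes. It was at least 1.5-fold above the mean of control replicates 2 and 3 in 15 of the 37, against 6.39% of all genes, and at least 2-fold above it in 9, against 2.58%. It was at least 1.5-fold below it in 0, against 5.44%. The median difference of control replicate 1 from the other 2 controls was 0.41 on the log2 scale, beside 0.36, 0.35 and 0.48 for FL-ApoE4 replicates 1, 2 and 3. Results are given with that library and without it, a choice made with earlier results of these data known. Control replicate 1 was the highest control in 32 of the 37, against 40.9% of all genes. Leaving it out lowers the control mean of those genes, so the counts without it follow in part from that choice.

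Without control replicate 1, 16 of the 37 rose with FL-ApoE4 by limma, against 2.93% of all genes, and 0 fell, against 1.69%. They were Isg15, Usp18, Parp9, Parp12, Parp14, Dhx58, Zbp1, Ifit3, Cmpk2, Lgals3bp, Rtp4, Tor3a, Sp100, Phf11d, Xaf1 and Epsti1. Of these, 11 rose by at least 1.5-fold, against 1.04% of all genes. The log2 fold change was positive in all 37 in this fit, against 50.2%, with a median of 0.35 against 0.00 for all genes. Every treated library was above both remaining controls in 28 genes, against 20%, and below both in 0, against 19.7%. By edgeR 19 rose, against 3.01%, and by DESeq2 21, against 4.27% of the genes with an adjusted p by it, which Zbp1 lacked. Without Zbp1, which passed the filter only through the treated group, 15 of the other 36 rose by limma. Zbp1 is also among the 11, the 37, the 28 and the 19 above. The count changed with the libraries kept. Leaving out control replicate 2 as well left Epsti1 and Tor3a called, 2 genes against 0.27% of all genes. Leaving out control replicate 3 as well left 4 against 0.888%, Cmpk2, Epsti1, Rtp4 and Tor3a. In both cases the lone control was assumed to vary like the other group. Leaving out FL-ApoE4 replicate 1 as well raised the count to 29, while the share of all genes called rose to 12.6%. With no filter on low values 4 were called, Epsti1, Parp12, Phf11d and Tor3a, against 1.41% of all genes, and without limma's trend 2, Epsti1 and Tor3a, against 0.327%.

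**Figure D2:**
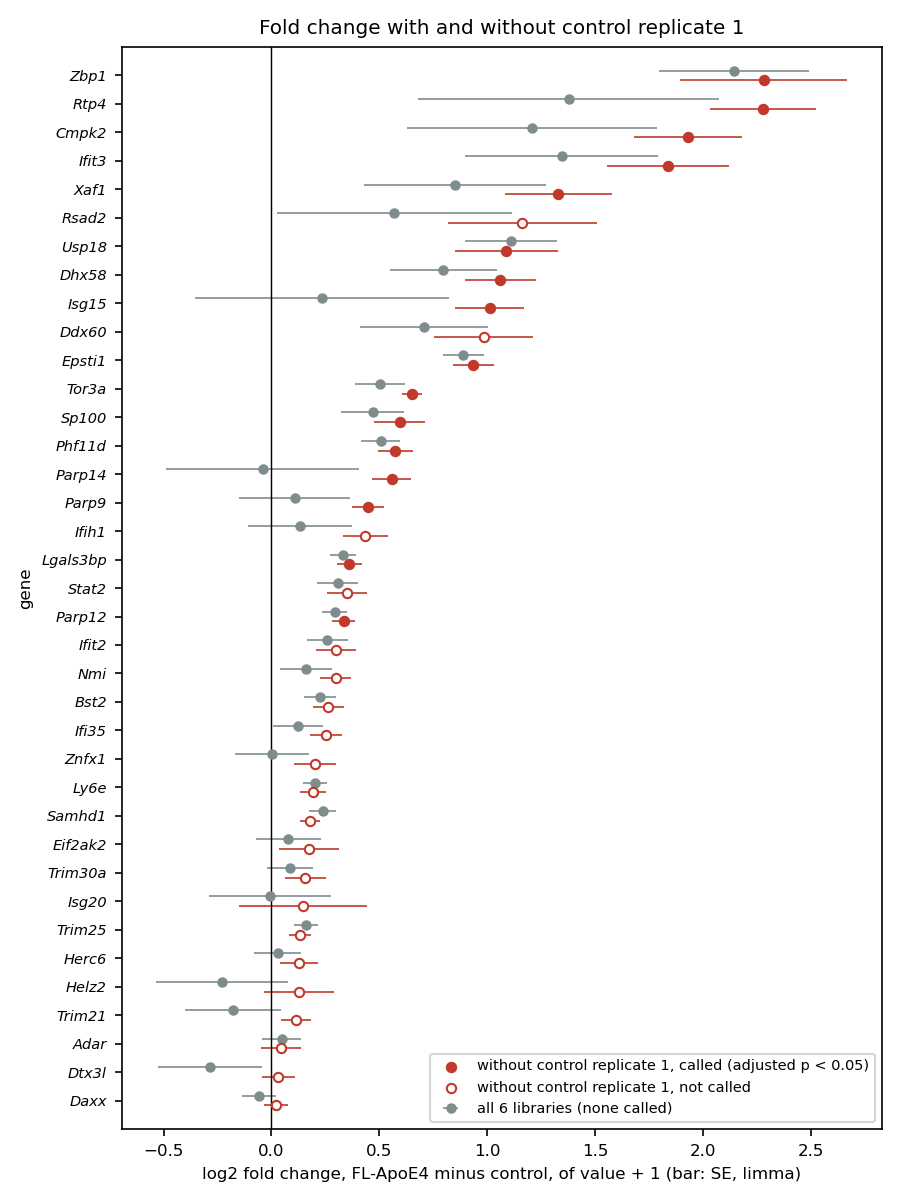
Log2 fold change (x axis, FL-ApoE4 minus control, log2 of normalised reads + 1) with its SE for each of the 37 tested genes, with all 6 libraries (grey) and without control replicate 1 (red, filled where called). Isg15 moves from 0.24 to 1.01 and Parp14 from -0.04 to 0.56, while Usp18 (1.11 and 1.09) and Epsti1 (0.89 and 0.94) stay in place.

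**Figure D3:**
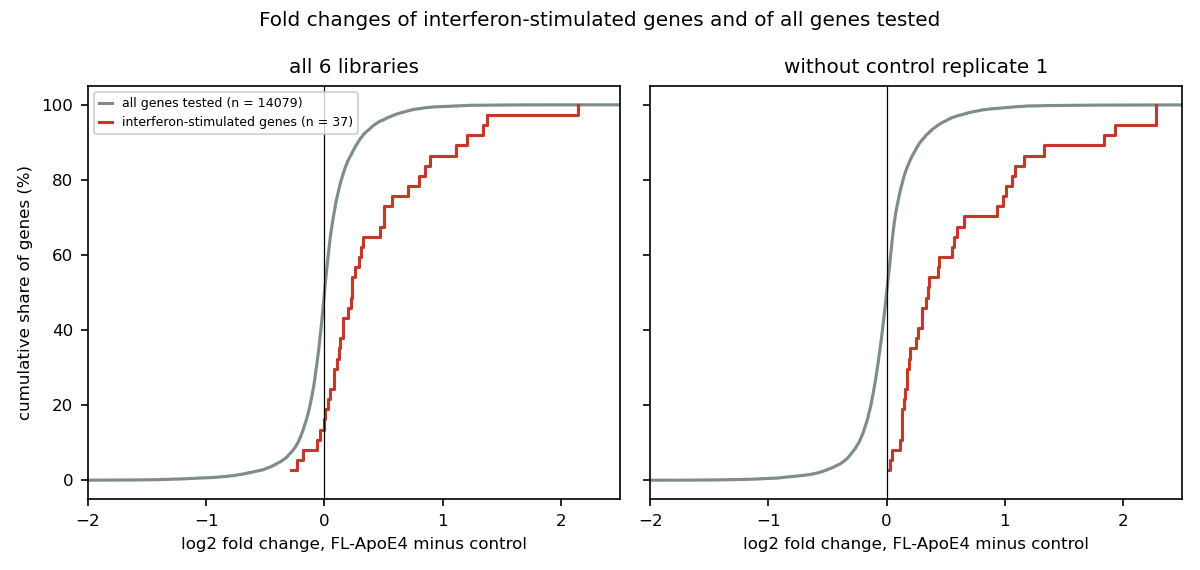
Cumulative share of genes (y axis, percent) by log2 fold change (x axis, FL-ApoE4 minus control, cut at -2 and 2.5) for the 37 genes (red) and all 14079 genes tested (grey), with all libraries (left) and without control replicate 1 (right). The medians of the 37 are 0.24 and 0.35, and those of all genes are 0.00.

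In what follows, values are normalised reads in replicates 1, 2 and 3 of a group, in that order. Fold changes are on the log2(normalised reads + 1) scale with their SE, and adjusted p-values are from limma over all genes tested. Levels are not compared between genes, since they are not divided by gene length.

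The genes are taken by role, beginning with ISG15 conjugation and ubiquitin ligases. Isg15 encodes the ubiquitin-like protein that is attached to other proteins in the interferon response. It was at 1234, 259 and 232 in controls and at 518, 391 and 598 with FL-ApoE4. Control replicate 1 was the highest of all libraries, and the treated libraries lay between it and the other 2 controls. The fold change was 0.24 ± 0.59 (adjusted p = 0.919) with all 6 libraries, and without control replicate 1 Isg15 rose by 1.01 ± 0.16 (adjusted p = 0.0109).

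Usp18, which removes ISG15 from proteins and blocks signalling at IFNAR2, was at 23.9, 23.7 and 26.4 in controls and at 49.1, 46.4 and 70.5 with FL-ApoE4. The 3 controls lay close together and every treated library was above them. The means were 24.7 ± 1.49 and 55.3 ± 13.2 (SD, n = 3 each). With all libraries it had a log2 fold change of 1.11 ± 0.21 (adjusted p = 0.129), and it rose by 1.09 ± 0.24 (adjusted p = 0.04) without control replicate 1.

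The ligases showed smaller values. Herc6, the main ligase of ISG15 in the mouse, had 0.03 ± 0.11 and 0.13 ± 0.09 in the 2 fits, and Trim25, a ubiquitin ligase that acts with the RNA sensor RIG-I, had 0.16 ± 0.05 and 0.13 ± 0.05. Trim21, a cytosolic antibody receptor and ligase, was at 1134, 616 and 622 in controls and at 689, 646 and 674 with FL-ApoE4. Its treated libraries lay just above control replicates 2 and 3 and well below control replicate 1. Its fold change was -0.18 ± 0.22 (adjusted p = 0.806), and 0.11 ± 0.07 (adjusted p = 0.437) without control replicate 1. Trim30a, a ligase known in the mouse to restrain Toll-like receptor signalling, had 0.08 ± 0.11 and 0.16 ± 0.10.

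The ADP-ribosyltransferases differed among themselves in control replicate 1. Parp14, which adds single ADP-ribose units to proteins, was at 7175, 2047 and 2088 in controls and at 2711, 3025 and 3440 with FL-ApoE4. The first control was 3.47 times the mean of the other 2 controls, and the treated libraries were 1.48 times that mean. Over all 6 libraries the log2 difference was -0.04 ± 0.45 (adjusted p = 0.983), and without control replicate 1 Parp14 rose by 0.56 ± 0.09 (adjusted p = 0.0116).

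Parp9, which acts in a complex with the ubiquitin ligase DTX3L, was at 1821, 904 and 896 in controls and at 1179, 1178 and 1332 with FL-ApoE4. Its fold change was 0.11 ± 0.26 (adjusted p = 0.912), and it rose by 0.45 ± 0.07 (adjusted p = 0.0128) without control replicate 1. Dtx3l was at 2649, 1380 and 1363 in controls and at 1283, 1430 and 1501 with FL-ApoE4. Its treated libraries overlapped control replicates 2 and 3, and the fold changes were -0.28 ± 0.24 (adjusted p = 0.678) and 0.03 ± 0.08 (adjusted p = 0.859). These genes are neighbours, Parp14, Dtx3l and Parp9 in order on chromosome 16, and Parp9 and Dtx3l share 458 exonic bases on opposite strands in GENCODE M21, so their reads are uncertain to that extent.

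Parp12, another transferase of single ADP-ribose units with antiviral activity, was at 2337, 2121 and 2163 in controls and at 2712, 2768 and 2632 with FL-ApoE4. Here control replicate 1 was near the other controls and every treated library was higher. The fold change was 0.29 ± 0.06 (adjusted p = 0.136), and it rose by 0.34 ± 0.05 (adjusted p = 0.0106) without control replicate 1.

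Among the sensors of nucleic acid, the protein of Zbp1 binds Z-form nucleic acid and can start necroptosis. The gene was at 6.52, 5.69 and 3.77 in controls and at 26.8, 18.5 and 37.2 with FL-ApoE4, which stand for 6, 6 and 4 reads and for 24, 20 and 38 reads. The counts are few, and the groups did not overlap in a gene that passed the filter only through its treated libraries. With all libraries it had a log2 fold change of 2.14 ± 0.35 (adjusted p = 0.112), and it rose by 2.28 ± 0.39 (adjusted p = 0.0142) without control replicate 1.

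Dhx58, which encodes LGP2, a regulator of the RNA sensors RIG-I and MDA5, was at 194, 118 and 107 in controls and at 228, 197 and 289 with FL-ApoE4. Control replicate 1 came close to the lowest treated library without reaching it. Over all 6 libraries the log2 difference was 0.80 ± 0.25 (adjusted p = 0.243), and it rose by 1.06 ± 0.16 (adjusted p = 0.00961) without control replicate 1. Ifih1, which encodes MDA5 itself, had 0.13 ± 0.24, and 0.44 ± 0.10 (adjusted p = 0.0507) without control replicate 1. Ddx60, a helicase linked to RIG-I signalling, had 0.71 ± 0.30, and 0.98 ± 0.23 (adjusted p = 0.0503) without it. Without that library, edgeR called Ifih1 (adjusted p = 0.0442) and Ddx60 (adjusted p = 0.0463). So did DESeq2 (adjusted p = 0.00662 and 0.00493).

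The 2 large helicases were not called by limma in either fit. Helz2, a helicase and coactivator of nuclear receptors, was at 7400, 3324 and 3729 in controls and at 2992, 3935 and 4836 with FL-ApoE4. The highest library was control replicate 1, and the treated libraries lay on both sides of the other controls. Its fold changes were -0.23 ± 0.31 (adjusted p = 0.82) and 0.13 ± 0.16 (adjusted p = 0.732). Znfx1, a sensor of double-stranded RNA at mitochondria, had 0.00 ± 0.17 and 0.20 ± 0.10.

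The IFIT proteins bind viral RNA and hinder its translation. Ifit2 was at 942, 860 and 873 in controls and at 1060, 956 and 1198 with FL-ApoE4. Every treated library was above every control, by little, and the fold changes were 0.26 ± 0.09 (adjusted p = 0.306) and 0.30 ± 0.09 (adjusted p = 0.123). Ifit3 was at 101, 31.3 and 40.5 in controls and at 123, 92.7 and 193 with FL-ApoE4. Control replicate 1 lay within the treated range, and control replicates 2 and 3 lay below it. The fold change was 1.35 ± 0.45 (adjusted p = 0.27), and Ifit3 rose by 1.84 ± 0.28 (adjusted p = 0.00961) without control replicate 1. Its copy Ifit3b, whose promoter is printed beside that of Ifit3, was listed at 0 in all 6 libraries. Of the 50-base words of Ifit3 transcripts, 51.2% also occur in other genes, chiefly Ifit3b, so the split of reads between the copies is uncertain.

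**Figure D4:**
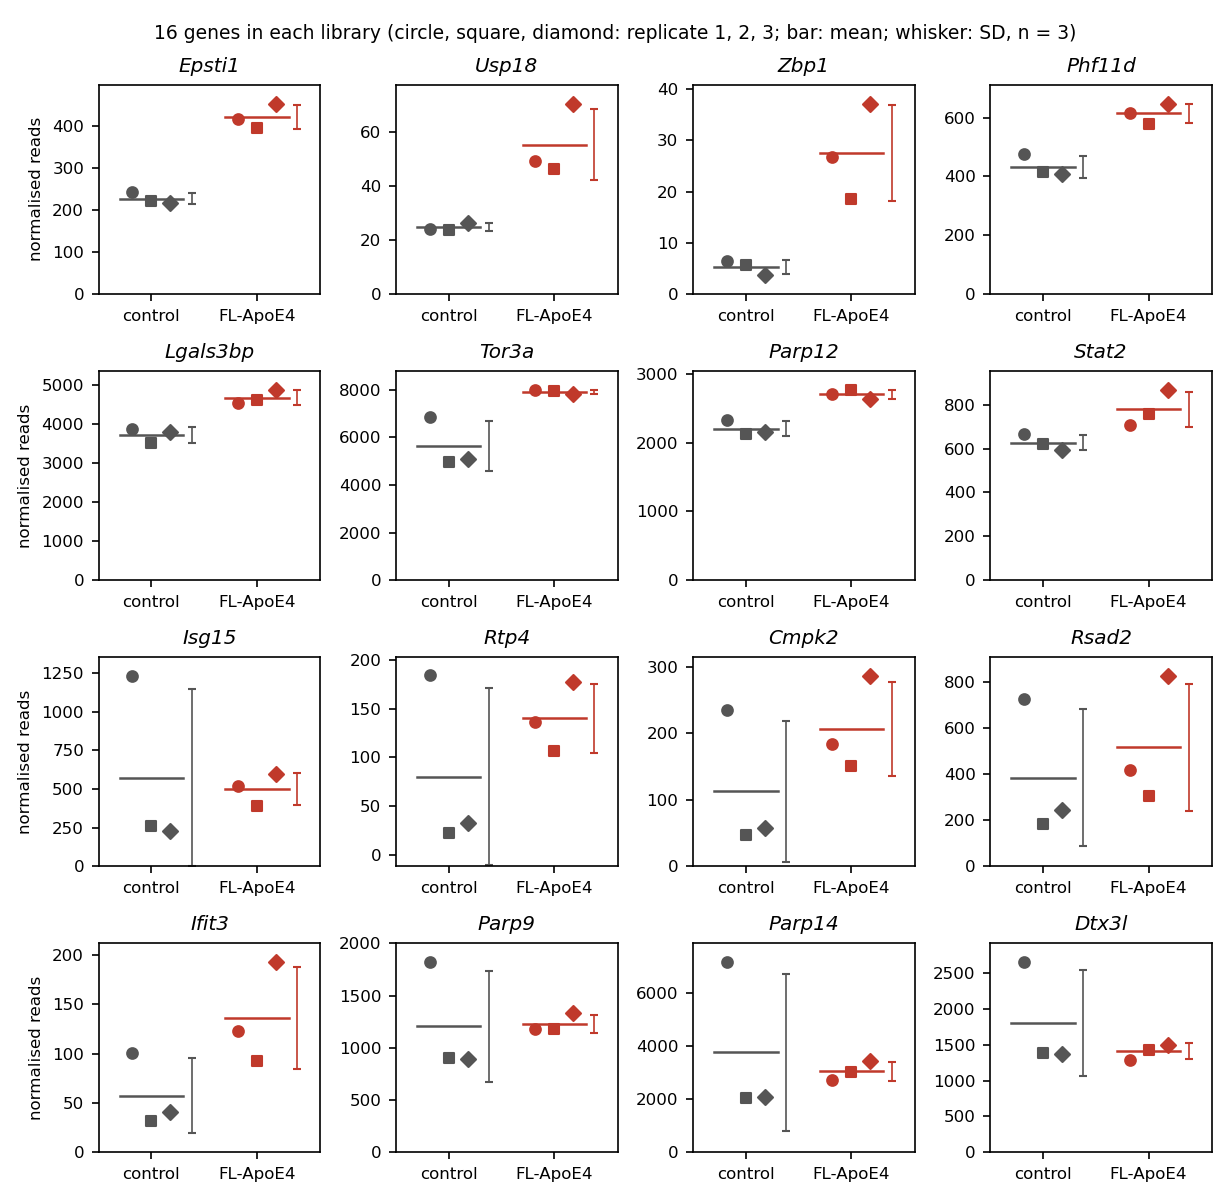
Normalised reads (y axis, linear, a separate scale for each gene) of 16 genes in the 3 control (grey) and 3 FL-ApoE4 (red) libraries; circles, squares and diamonds are replicates 1, 2 and 3, bars are means and whiskers the SD (n = 3). In the 2 upper rows the treated libraries lie above all controls, and in the 2 lower rows control replicate 1 reaches or passes treated libraries.

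Effectors that act on RNA, translation and nucleotides differed in how control replicate 1 lay beside the other libraries. Rsad2, which encodes viperin, an enzyme that makes a chain-terminating nucleotide, was at 723, 181 and 243 in controls and at 415, 306 and 825 with FL-ApoE4. Control replicate 1 and FL-ApoE4 replicate 3 were the highest libraries. With all libraries it had a log2 fold change of 0.57 ± 0.55 (adjusted p = 0.722), and 1.16 ± 0.34 (adjusted p = 0.104) without control replicate 1. Cmpk2, a mitochondrial nucleotide kinase and the next protein-coding gene on chromosome 12, was at 236, 46.5 and 57.5 in controls and at 184, 151 and 287 with FL-ApoE4. It showed the same high libraries as Rsad2. Its fold change was 1.21 ± 0.58 (adjusted p = 0.435), and it rose by 1.93 ± 0.25 (adjusted p = 0.00445) without control replicate 1.

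Samhd1, which degrades deoxynucleotides, was at 7478, 8242 and 8700 in controls and at 9667, 9533 and 9526 with FL-ApoE4. Control replicate 1 was here the lowest library, and the groups did not overlap. The fold changes were 0.24 ± 0.06 (adjusted p = 0.203) and 0.18 ± 0.05 (adjusted p = 0.0762). Without control replicate 1, DESeq2 called Samhd1 (adjusted p = 0.0306) and edgeR did not. Eif2ak2, the kinase PKR that halts translation, had 0.08 ± 0.15 and 0.17 ± 0.14, and Adar, which edits double-stranded RNA, had 0.05 ± 0.09 and 0.04 ± 0.09. Isg20, an exonuclease for single-stranded RNA, was at 41.3, 37.9 and 23.6 in controls and at 33.5, 25.96 and 42.1 with FL-ApoE4. Its groups overlapped over most of their range, and its fold changes were -0.00 ± 0.28 (adjusted p = 0.996) and 0.15 ± 0.30 (adjusted p = 0.833).

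Of the membrane and secreted effectors, Tor3a, an ATPase of the torsin family in the endoplasmic reticulum, had the lowest p of the 37 without control replicate 1. It was at 6832, 4970 and 5088 in controls and at 7965, 7942 and 7793 with FL-ApoE4. The treated libraries were nearly level, and control replicate 1 lay between them and the other controls. Over all 6 libraries the log2 difference was 0.50 ± 0.12 (adjusted p = 0.171), and it rose by 0.65 ± 0.05 (adjusted p = 0.00049) without control replicate 1.

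Rtp4, which encodes a receptor-transporting protein with antiviral activity, was at 185, 22.8 and 32.98 in controls and at 136, 107 and 177 with FL-ApoE4. Control replicate 1 was the highest library, at 6.62 times the mean of the other 2 controls, and the treated libraries were at 5.02 times that mean. The fold change was 1.38 ± 0.70 (adjusted p = 0.455), and it rose by 2.28 ± 0.25 (adjusted p = 0.00226) without control replicate 1. Rtp4 shares 13.9% of its exonic bases with the predicted gene Gm45338 on the same strand, so its reads are uncertain to that extent. The same limit holds for Herc6, which shares 13.7% with Gm45193 on the same strand. It also holds for Adar and Ifi35, which share 16.8% each with Chrnb2 and Gm11626 on the opposite strand.

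Lgals3bp, a secreted glycoprotein that binds galectin 3, was at 3890, 3508 and 3789 in controls and at 4537, 4634 and 4887 with FL-ApoE4. All treated libraries were higher than all controls. With all libraries it had a log2 fold change of 0.33 ± 0.06 (adjusted p = 0.113), and it rose by 0.36 ± 0.06 (adjusted p = 0.0109) without control replicate 1. Ly6e, a surface protein that hinders entry of coronaviruses, was at 11979, 11797 and 12554 in controls and at 14834, 13638 and 13314 with FL-ApoE4. Its groups did not overlap either, and its fold changes were 0.20 ± 0.06 (adjusted p = 0.219) and 0.19 ± 0.06 (adjusted p = 0.114). Bst2, which encodes tetherin, a protein that holds budding virus at the membrane, had 0.23 ± 0.07 and 0.26 ± 0.07 (adjusted p = 0.0798). Without control replicate 1, DESeq2 called Bst2 (adjusted p = 0.0236) and edgeR did not.

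Signal transducers were higher by small amounts and were not called by limma in either fit. Stat2, the subunit of the interferon-activated complex described above, was at 666, 621 and 595 in controls and at 708, 757 and 868 with FL-ApoE4. Every treated library was above every control. The fold changes were 0.31 ± 0.10 (adjusted p = 0.244) and 0.35 ± 0.09 (adjusted p = 0.0799). For Nmi and Ifi35, whose proteins bind each other, control replicate 1 was the highest of all 6 libraries and the groups overlapped. These 2 genes had 0.16 ± 0.12 and 0.13 ± 0.12, and 0.30 ± 0.07 and 0.25 ± 0.07 without control replicate 1. In that fit DESeq2 called Stat2 (adjusted p = 0.0316) and Nmi (adjusted p = 0.0242), and edgeR called Nmi (adjusted p = 0.0492).

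Among nuclear proteins, Phf11d, a PHD finger protein, was at 475, 416 and 407 in controls and at 617, 579 and 646 with FL-ApoE4. The groups were well separated. Over all 6 libraries the log2 difference was 0.51 ± 0.09 (adjusted p = 0.112), and it rose by 0.57 ± 0.08 (adjusted p = 0.00634) without control replicate 1. Sp100, a component of PML nuclear bodies, was at 270, 189 and 230 in controls and at 295, 309 and 344 with FL-ApoE4. Its groups were separate, with control replicate 1 nearest to the treated libraries. The fold change was 0.47 ± 0.14 (adjusted p = 0.242), and it rose by 0.59 ± 0.12 (adjusted p = 0.0296) without control replicate 1. Daxx, a histone chaperone of the same bodies, was at 2581, 2200 and 2162 in controls and at 2292, 2137 and 2220 with FL-ApoE4. Its treated libraries lay about control replicates 2 and 3, with fold changes of -0.06 ± 0.08 (adjusted p = 0.826) and 0.02 ± 0.06 (adjusted p = 0.863).

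Epsti1, an interferon-induced gene expressed in macrophages, had the lowest p of the 37 with all libraries. It was at 241, 221 and 217 in controls and at 415, 394 and 452 with FL-ApoE4. Controls and treated libraries formed separate, narrow ranges, with means of 226 ± 13.0 and 420 ± 29.5 (SD, n = 3 each). With all libraries it had a log2 fold change of 0.89 ± 0.10 (adjusted p = 0.0666), and it rose by 0.94 ± 0.10 (adjusted p = 0.00194) without control replicate 1. Xaf1, which opposes the apoptosis inhibitor XIAP, was at 245, 82.5 and 98.0 in controls and at 254, 155 and 300 with FL-ApoE4. Control replicate 1 lay within the treated range. Over all 6 libraries the log2 difference was 0.85 ± 0.42 (adjusted p = 0.449), and it rose by 1.33 ± 0.25 (adjusted p = 0.0215) without control replicate 1.

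The remaining 4 genes with a row were not tested. Ifit3b and Ifi44l were listed at 0 in all libraries. Ifitm3, which blocks fusion of viral and cellular membranes, ranged from 0 to 6.60 normalised reads in controls and from 5.58 to 11.1 with FL-ApoE4, and Ifi44, a cytoplasmic protein induced by interferon, from 2.85 to 5.65 and from 2.78 to 6.69.

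The libraries within the treated group differed as well. FL-ApoE4 replicate 3 was the highest treated library in 27 of the 37 genes, against 30% of all genes, and the highest of all 6 libraries in 18, against 9.75%. Control replicate 1 was the highest of all 6 libraries in 13, against 25.7%, and the highest control in 32, against 40.9%. Control replicates 2 and 3 were the highest library for 0 of the 37, against 11.6% and 15.6%.

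Genes with a match to the core letters and those without are set side by side, and their difference was not tested. Without control replicate 1, the median fold change was 0.39 over 10 tested genes with a match, with a range of 0.11 to 1.84. It was 0.25 over 19 tested genes without one, with a range of 0.02 to 1.93. These medians changed with the window and the letters. In the 250 bases before the start alone they were 0.98 over 7 genes with a match and 0.23 over 22 without, and with the longer form they were 0.62 over 4 and 0.30 over 25. All these medians are without control replicate 1. With all libraries the 7 genes had lower values: Isg15 0.24, Trim30a 0.08, Ddx60 0.71, Ifit3 1.35, Rsad2 0.57, Bst2 0.23 and Stat2 0.31. In Isg15, Ddx60, Ifit3 and Rsad2, control replicate 1 was at least 1.5-fold above the mean of the other controls. Of the genes printed above, Isg15 and Ifit3 were among those called by limma without control replicate 1, and Rsad2, Ddx60 and Bst2 were not. In the same libraries DESeq2 called Ddx60 and Bst2 and edgeR called Ddx60, while Rsad2 was called by neither.

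The list of other genes of the pathway held 66 names, of which 63 had a row and 43 were tested. Ifnb1 passed the filter only through the controls and Ifitm1 only through the treated libraries. With all libraries 0 were called by limma. At an unadjusted p under 0.05, 13 were higher and 3 lower, against 6.81% and 6.33% of all genes, and without those 2 genes the counts were 12 and 2. The edgeR test called 0, and at an unadjusted p under 0.05 it gave 13 higher, against 6.8% of all genes. It gave 3 lower, with Socs3 in place of Ifnb1, and its share of all genes for that direction is not given here. In both tests the 3 lower were 6.98% of the 43, near the limma share of 6.33%. DESeq2 called 6 higher, against 1.62% of all genes with an adjusted p by it, which Ifnb1, Ifitm1, Socs1 and Ifit1bl1 lacked. Without control replicate 1, 12 rose and 1 fell, against 2.93% and 1.69% of all genes, and the 43 had a median fold change of 0.21. The total of 13 became 5 with no filter on low values, when 1.41% of all genes were called, and 0 when limma was run without its trend, when 0.327% were. It was 0 without control replicate 2 as well, against 0.27% of all genes, and 18 without FL-ApoE4 replicate 1 as well, against 12.6%.

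Ifnb1, which encodes interferon beta, was at 34.8, 18.02 and 16.02 in controls and at 2.23, 1.85 and 20.6 with FL-ApoE4. The highest control was replicate 1 and the highest treated library was replicate 3. The fold changes were -1.95 ± 0.78 (adjusted p = 0.344) and -1.62 ± 0.82 (adjusted p = 0.33). Of the 11 genes of type I and III interferons in the list, 8 were listed at 0 in all libraries, as was the gene of interferon gamma.

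The receptor genes Ifnar1 and Ifnar2 had fold changes of -0.08 ± 0.05 and -0.15 ± 0.09 with all libraries, and -0.05 ± 0.05 and -0.04 ± 0.05 without control replicate 1. Irf9, the DNA-binding subunit of the complex, was at 808, 417 and 486 in controls and at 741, 701 and 954 with FL-ApoE4. Control replicate 1 lay within the treated range. The fold change of Irf9 was 0.53 ± 0.24 (adjusted p = 0.412), and it rose by 0.81 ± 0.13 (adjusted p = 0.0124) without control replicate 1.

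Among enzymes that attach ISG15, Uba7, which activates it, was at 416, 401 and 361 in controls and at 550, 553 and 466 with FL-ApoE4. Ube2l6, which carries it to the ligase, was at 4347, 3162 and 3322 in controls and at 5618, 4775 and 4208 with FL-ApoE4. The groups were separate for Uba7, and control replicate 1 overlapped the treated range for Ube2l6. Without control replicate 1 they rose by 0.45 ± 0.10 (adjusted p = 0.0438) and 0.58 ± 0.10 (adjusted p = 0.0186). Others that rose in this fit were Ddx58, which encodes RIG-I, by 0.99 ± 0.12, the galectin gene Lgals9 by 0.62 ± 0.07, and Tyk2, Ptpn6, Parp10, Sp110, Mov10 and Trafd1 by between 0.24 and 0.55. Socs3, a brake on cytokine receptors, was at 5331, 2049 and 1972 in controls and at 1664, 1691 and 1483 with FL-ApoE4. All treated libraries were below all controls, with a fold change of -0.79 ± 0.35 (adjusted p = 0.398), and it fell by 0.32 ± 0.07 (adjusted p = 0.0418) without control replicate 1.

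**Figure D5:**
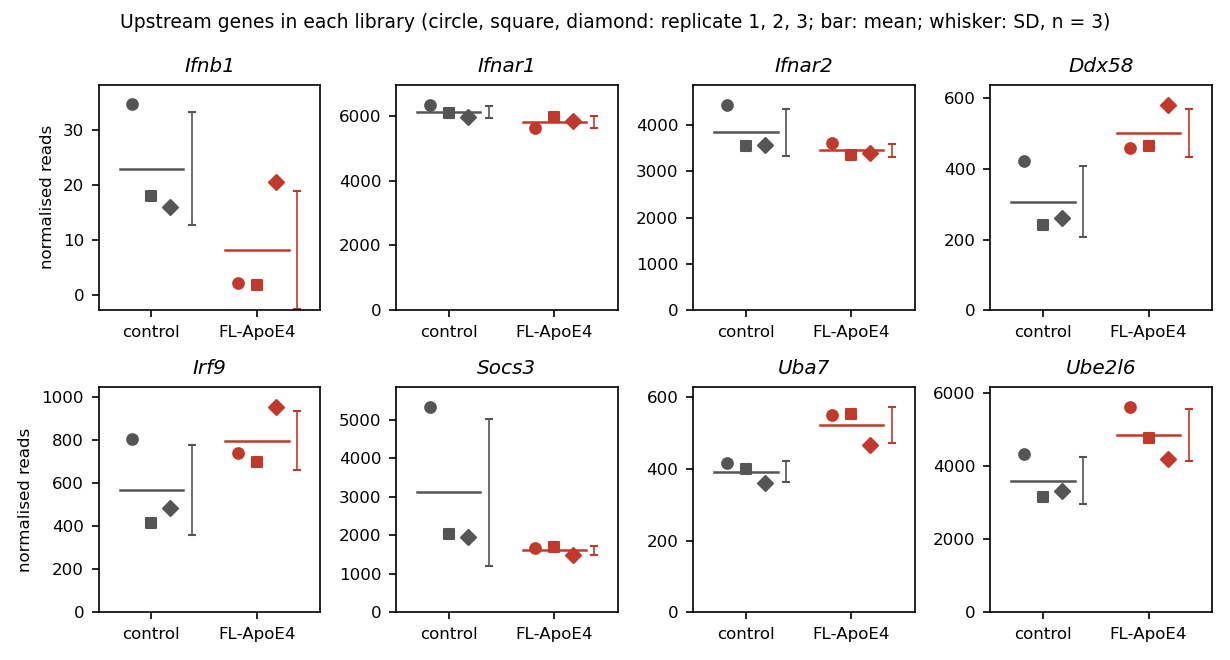
Normalised reads (y axis, linear, a separate scale for each gene) of 8 genes of interferon signalling, RNA sensing and ISG15 conjugation in the 3 control (grey) and 3 FL-ApoE4 (red) libraries; circles, squares and diamonds are replicates 1, 2 and 3, bars are means and whiskers the SD (n = 3). Ddx58 and Uba7 are higher in all treated libraries, Socs3 is lower in all of them, and Ifnb1 is at 20.6 in FL-ApoE4 replicate 3 and at 2.23 and 1.85 in the other 2 treated libraries.

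The authors' deposited table, which compares the same 6 libraries, gave an adjusted p under 0.05 for 6 of the 37 genes, all higher with FL-ApoE4, against 1.51% of the 12897 genes with an adjusted p. In the authors' deposited table these were Epsti1 (log2 fold change 0.90), Phf11d (0.51), Lgals3bp (0.33), Parp12 (0.29), Tor3a (0.49) and Usp18 (1.16). In the same deposited table Isg15 had -0.19 with an adjusted p of 0.982. That table gave no adjusted p for Zbp1. The 6 genes named are also those that DESeq2 called on the recovered reads of all libraries.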

How the data were processed

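Total RNA of 6 samples was sequenced from directional libraries, per the labels' protocols. The submitters' processing notes name FastQC 0.11.8, HISAT2 2.2.1, HTSeq, DESeq2 1.30.1 and the build GRCm39; roles, settings and the strand setting of the counting go unstated in those sources, so overlapping genes are uncertain. The authors deposited a normalised signal per gene and library. All values (100%) were whole multiples of one read within a tolerance of 0.01, so whole reads were recovered. The authors' deposited log2 fold change and p-value columns served only to describe their own calls, and the score column of test statistics in the authors' table was not printed.

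Differences were tested two-sided with limma (version 3.58.1, in R 4.3.3) and its trend option on log2(value + 1), for genes with a mean of at least 10 normalised reads. P-values were adjusted by Benjamini-Hochberg and called under 0.05. The scale understates changes of low genes. A second fit of the same genes left out control replicate 1. Alternatives were edgeR 4.0.16 and DESeq2 1.42.0 on recovered reads, other pseudocounts, filters, scalings and weights, a block for the replicate number, and leaving out each library. The members, gene lists and second fit were chosen with earlier results of these data known. Every listed gene could be named; values per library are given for the 12 of lowest p in each fit, those opposite in sign to the median, and a fixed few, with pathway genes named where called or fixed. RefSeq promoters (GRCm38.p6) matched 33 of 41 genes by symbol. That build and GENCODE M21 differ from the authors' build and served for sequence, overlaps and neighbours alone. Values at 0 are given as listed at 0. The values of 1 pathway gene are not reported here.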

Additional observations from a re-analysis of the deposited data

How the results depend on the processing

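With all 6 libraries, the count of the 37 genes called, 0 in the main test, was 6 by DESeq2 and 22 with array quality weights, and ranged from 0 to 16 over libraries left out, with 16 only without control replicate 1. Pathway genes called, 0 in the main test, were 6, 17 and 0 to 13 in the same order. The share of all genes called, 0.0% in that test, was 3.21% (of genes with an adjusted p by DESeq2), 11.0% and 0.0% to 4.62%. Without control replicate 1, the count of 16 was 4 with no filter on low values, 2 without trend, and 2 to 29 over further libraries left out, while the count of 13 pathway genes was 5, 0 and 0 to 18. Over the same settings the share of all genes called, 4.62% in the main test of this fit, was 1.41%, 0.327% and 0.27% to 12.6%. The 37 genes' median ranged from 0.18 to 0.38 with all libraries and from 0.33 to 0.39 without control replicate 1. The cause of these differences was not tested. Whether the replicate number pairs the samples is not stated. Deviations from the group means correlated at 0.13, 0.07 and -0.03 for same-numbered libraries and at -0.16 to 0.16 for the other pairs. With so few libraries, whose deviations sum to 0 within a group, these values cannot decide it. With the number as a replicate block, 0 genes were called with all libraries and 31 without control replicate 1, when 15.2% of all genes were called. In the latter FL-ApoE4 replicate 1 had no control of its number, and Daxx had -0.0019, its value without that library. The longer letters were found in 18.2% of the 33 genes, against 0.303% of all genes.

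Signs changed for Isg20 with equal totals (0.010), for Isg15 and Znfx1 by edgeR (-0.18 and -0.012) and DESeq2 (-0.20 and -0.019), and with array quality weights for Trim21 (0.060), Parp14 (0.54), Dtx3l (0.032) and Helz2 (0.24). With a library left out, log2 fold changes that changed sign ranged from -0.030 to 0.15 for Adar, -0.11 to 0.023 for Daxx, -0.45 to 0.032 for Dtx3l, -0.078 to 0.20 for Eif2ak2, -0.45 to 0.13 for Helz2, -0.059 to 0.13 for Herc6, -0.027 to 0.44 for Ifih1, -0.19 to 1.01 for Isg15, -0.25 to 0.17 for Isg20, -0.35 to 0.56 for Parp14, -0.064 to 0.45 for Parp9, -0.33 to 0.11 for Trim21, -0.040 to 0.16 for Trim30a and -0.11 to 0.20 for Znfx1. Without control replicate 1 and a further library they ranged from -0.034 to 0.14 for Adar, -0.0019 to 0.049 for Daxx, -0.018 to 0.10 for Dtx3l, -0.043 to 0.39 for Eif2ak2, -0.037 to 0.31 for Helz2, -0.19 to 0.48 for Isg20 and -0.017 to 0.33 for Trim30a. Depth limits Zbp1, Usp18, Isg20 and Ifnb1, which rest on few reads.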
